A study of Mus musculus with 4 samples.

Results

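The genes described here make cholesterol, sense how much of it a cell holds, and move it out of the hepatocyte. They comprised 31 genes picked by name: enzymes of the route from acetyl-CoA to cholesterol, the sterol regulatory element-binding proteins (SREBPs) with the proteins that hold them back or release them, and transporters and regulators of sterol transfer. A gene took its value from probe sets listed for a single gene symbol, averaged on the log2 scale. In all, 28 of the 31 had such a value, of 22180 genes on the array. Idi1, which isomerises isopentenyl diphosphate, was measured only by a probe set that several genes share. The expression of Acat2 (acetyl-CoA acetyltransferase) and Soat2 (sterol O-acyltransferase) was not analysed here, as neither had a listed probe set.

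The cells were primary mouse hepatocytes from male mice aged 2 months, kept for 16 h without serum. The 4 groups were KO fructose (Chrebp-KO cells in medium with 25 mM fructose), KO control (Chrebp-KO cells with no fructose added), WT fructose (wild-type cells in medium with 25 mM fructose) and WT control (wild-type cells with no fructose added). Chrebp, also named Mlxipl, encodes a transcription factor that responds to sugars. Each group was measured on 1 array, so no difference below has a replicate check, no test was possible, and genes were counted by size alone. The deleted segment of Mlxipl is not named in the labels, nor whether all tissues of the mice lack it or how many animals gave the cells, and the extraction protocol speaks of liver RNA although the samples are cultured cells.

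Cholesterol is built from acetyl-CoA through mevalonate, squalene and lanosterol in the endoplasmic reticulum. When that membrane is short of sterol, SCAP escorts the SREBP precursors to the Golgi, where they are cut into active transcription factors; when sterol is plentiful, the INSIG proteins keep SCAP in place and the enzymes' genes are transcribed less. SREBP-2 (Srebf2) mainly drives the cholesterol enzymes, whereas the SREBP-1c form of Srebf1 is best known in liver for fatty acid synthesis and for its induction by insulin and by the oxysterol receptor LXR. LXR also induces the exporters Abca1, Abcg5 and Abcg8.

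The arrays held the RNA of hepatocytes, with smaller amounts from other liver cells. Macrophage and endothelial markers had lower summed levels on both KO arrays than on both WT arrays. All 7 measured hepatocyte markers lay above the background level of 4.764 (log2, set from 1105 olfactory receptor genes) on every array, and Alb lay between 12.58 and 12.66. Of the 7, however, 3 differed by more than 0.5 with fructose in both genotypes: Cps1 by 1.40 in KO and 1.41 in WT, Fah by 0.55 and 0.67, and Hnf4a by -0.50 and -0.75 (log2). Their part in the fructose effects below was not tested. Of 8 macrophage markers, 7 were above background on every array, and all 8 were lower in KO in fructose medium (median log2 difference -0.62) and in control medium (-0.53). Their summed level was 8.54 and 8.69 (log2) in KO fructose and KO control, against 9.18 and 9.32 in WT fructose and WT control, so both KO arrays were below both WT arrays. Endothelial markers (6 measured, 5 above background on every array) had summed levels of 8.99 and 9.07 in KO fructose and KO control, against 9.45 and 9.60 in WT fructose and WT control. Of 5 stellate cell markers, 2 were below background on every array, and their summed levels lay between 7.22 and 7.42. Of 4 cholangiocyte markers, Krt19, Krt7 and Epcam were below background on every array, while Sox9 had 10.21, 9.39, 10.30 and 9.82 in KO fructose, KO control, WT fructose and WT control. In RNA from many cells, fewer cells of a type and less RNA per cell cannot be told apart, and the part of these other cells in the genotype differences below was not tested. Mlxipl itself had 7.37 and 7.42 in KO fructose and KO control, against 8.43 and 8.08 in WT fructose and WT control, and so was detected in KO cells at a lower level. Between 10368 and 10447 genes lay above background per array.

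Insig1, Srebf1, Mvd and Dhcr7 were at least 2-fold apart in 1 or more of the 5 comparisons. These 4 of 28 were 14.3%, next to 7.11% of the 11050 genes above background on at least 1 array. The other 24 stayed under 2-fold in all 5, although Stard4 spanned 1.03 log2 units between its highest and lowest array and Abcg5 spanned 0.91. A span below 0.5 log2 units was seen for 13 of the 28 (46.4%), next to 62.1% of the same genes. All 28 lay above background on every array.

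Promoter sequences of these 4 genes, and of Hmgcs1, show the DNA around the start of the genes on which the results turn. The windows run from 250 bases before to 50 bases after a transcription start (RefSeq, GRCm38.p6, 5′ to 3′ on the gene's strand). Capitals mark the CCAAT box (CCAAT or its reverse complement), the E-box CACGTG, or the sterol regulatory element written as TCACNCCAC, each searched on both strands, and no match overlapped another motif's. Hmgcs1 is shown because, of the 26 members with a window, it alone had a match to TCACNCCAC. Fdps, Fdft1, Sqle, Stard4 and Soat2 had no window and were not searched. Where a gene had several windows (3 for Dhcr7, 3 for Srebf1), the window with the most matches is printed, and the most downstream of these where windows tied.
Insig1: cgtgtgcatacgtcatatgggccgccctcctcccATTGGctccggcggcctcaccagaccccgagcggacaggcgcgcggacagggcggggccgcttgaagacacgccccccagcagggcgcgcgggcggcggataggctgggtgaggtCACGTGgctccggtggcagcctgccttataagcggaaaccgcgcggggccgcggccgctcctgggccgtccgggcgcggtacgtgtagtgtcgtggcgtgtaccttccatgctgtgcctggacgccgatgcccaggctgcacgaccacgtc
Srebf1: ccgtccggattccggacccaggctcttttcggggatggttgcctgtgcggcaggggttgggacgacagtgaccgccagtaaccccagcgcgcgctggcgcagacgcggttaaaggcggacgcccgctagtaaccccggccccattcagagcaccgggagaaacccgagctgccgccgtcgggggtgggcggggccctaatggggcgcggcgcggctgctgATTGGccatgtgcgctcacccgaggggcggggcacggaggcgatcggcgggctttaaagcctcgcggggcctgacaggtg
Mvd: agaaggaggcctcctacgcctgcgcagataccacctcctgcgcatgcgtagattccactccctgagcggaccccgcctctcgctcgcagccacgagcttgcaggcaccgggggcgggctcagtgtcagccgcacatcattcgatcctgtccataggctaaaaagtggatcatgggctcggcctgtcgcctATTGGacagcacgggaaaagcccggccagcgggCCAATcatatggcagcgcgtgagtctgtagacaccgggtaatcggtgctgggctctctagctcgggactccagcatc
Dhcr7: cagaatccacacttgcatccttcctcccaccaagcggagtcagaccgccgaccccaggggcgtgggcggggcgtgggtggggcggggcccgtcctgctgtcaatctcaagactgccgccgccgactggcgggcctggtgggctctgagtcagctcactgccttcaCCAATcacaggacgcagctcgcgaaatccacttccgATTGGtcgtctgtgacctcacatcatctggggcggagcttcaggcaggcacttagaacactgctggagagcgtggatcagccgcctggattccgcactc
Hmgcs1: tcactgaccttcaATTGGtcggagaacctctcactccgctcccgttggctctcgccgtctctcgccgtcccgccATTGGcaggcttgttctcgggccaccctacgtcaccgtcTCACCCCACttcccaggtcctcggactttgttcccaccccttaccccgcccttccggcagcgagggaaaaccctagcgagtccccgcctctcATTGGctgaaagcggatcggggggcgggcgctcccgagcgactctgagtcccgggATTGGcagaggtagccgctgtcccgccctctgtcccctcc
Insig1 lies at chr5:28071162-28071461 on the + strand, Srebf1 at chr11:60210422-60210721 on the - strand, Mvd at chr8:122443373-122443672 on the - strand, Dhcr7 at chr7:143829964-143830263 on the + strand and Hmgcs1 at chr13:119690101-119690400 on the + strand. The Insig1 window holds an E-box 101 bases before the start and a CCAAT box on the reverse strand 216 bases before it. Those of Mvd and Dhcr7 hold a pair of CCAAT boxes each, in opposite orientations. The pairs lie 60 and 27 bases before the Mvd start and 85 and 49 bases before the Dhcr7 start. Another window of Dhcr7, not printed, holds an E-box 164 bases before its own start. The Srebf1 windows not printed lie upstream of the printed one. That at chr11:60222532-60222831 holds a CCAAT box 166 bases before its own start, and that at chr11:60220578-60220877 holds no match. Hmgcs1 has its TCACNCCAC match 137 bases before the start and 4 CCAAT boxes around it.

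CCAAT boxes were common in this set. Windows were found for 26 of the 31 genes, and 23 of the 26 (88.5%) had a CCAAT box in at least 1 window. The share was 41.1% of all 27025 genes with a window and 42.3% of the 8727 detected ones. The 26 include Acat2 and Idi1, which had no expression value. Of the 24 members with both a window and a value, 22 had a CCAAT box. An E-box was present in 6 of 26 (23.1%), compared with 8.09% of all genes and 11.9% of detected genes, and TCACNCCAC in 1 of 26 (3.85%), compared with 1.44% and 1.5%. Counted by window, 24 of 35 member windows and 37.4% of all 32851 windows held a CCAAT box, 7 of 35 and 7.15% an E-box, and 1 of 35 and 1.24% a TCACNCCAC match. These counts, by gene and by window, include 1 CCAAT box that the overlapping windows of Abcg5 and Abcg8 share, and the window count includes 1 E-box that 2 windows of Scap share. These are letter matches and say nothing of binding. A gene without a match only lacks those letters in this window.

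**Figure D1:**
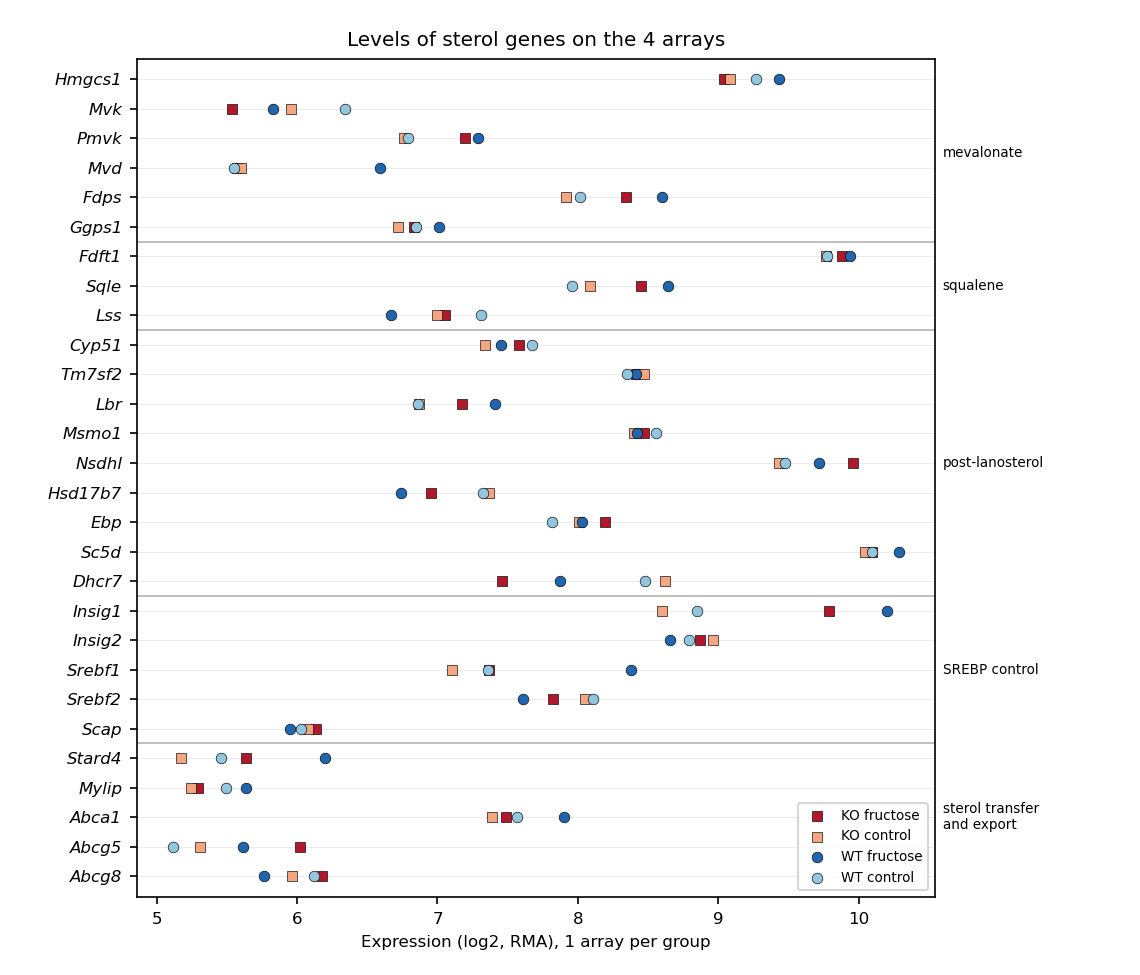
Log2 expression (horizontal axis, RMA units) of the 28 measured sterol genes on the 4 arrays, 1 point per array, in pathway order from top to bottom; squares are KO and circles WT, dark points fructose and pale points control. Insig1 spans the widest range, from 8.60 in KO control to 10.20 in WT fructose, and for Srebf1 the WT fructose point (8.38) stands apart from the other 3 arrays; where points coincide, the later one in the legend is drawn on top.

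Among the regulators, Insig1 was higher with fructose in both genotypes, and Srebf1 mainly in WT. Insig1, the sterol-responsive anchor that retains SCAP, had log2 levels of 9.78 in KO fructose, 8.60 in KO control, 10.20 in WT fructose and 8.85 in WT control cells. Both fructose arrays thus lay above both control arrays. Fructose was accompanied by a 2.27-fold higher level in KO and a 2.55-fold higher level in WT, ranks 116 of 10752 and 149 of 10814 detected genes from the top. Subtracting the WT effect from the KO effect gave -0.17 (log2). Insig2, a second anchor whose transcription is known in liver to fall with insulin, had 8.87 and 8.96 in KO fructose and KO control, against 8.65 and 8.79 in WT fructose and WT control, a fructose effect of -0.09 in KO and -0.14 in WT.

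Srebf1, which encodes SREBP-1a and SREBP-1c, stood at 7.37 in KO fructose, 7.10 in KO control, 8.38 in WT fructose and 7.36 in WT control cells. The WT fructose array was the high one, and the KO fructose level was close to that of WT control. The fructose effect was 1.20-fold in KO and 2.03-fold in WT, and the difference of effects -0.76 (log2), rank 133 from the bottom of 11050 genes. Srebf1 was 2.02-fold lower in KO in fructose medium and 1.19-fold lower in control medium.

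Srebf2, the main activator of cholesterol enzymes, went the other way from Srebf1 with fructose. It had 7.83 in KO fructose, 8.05 in KO control, 7.61 in WT fructose and 8.11 in WT control cells, so both fructose arrays lay below both control arrays. The fructose effect was -0.23 in KO and -0.50 in WT (log2), under 1.5-fold in both. Scap had 6.14, 6.08, 5.95 and 6.03 in KO fructose, KO control, WT fructose and WT control, with a fructose effect of 0.06 in KO and -0.08 in WT. It was the only member with 2 probe sets, and these disagreed: the dimmer lay below background on every array (3.97 to 4.17), and the brighter alone gave 8.10, 8.03, 7.89 and 8.09 in the same order of arrays, with effects of 0.07 in KO and -0.19 in WT.

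In the mevalonate part of the route, Mvd was the gene whose fructose response differed between the genotypes. Mvd, mevalonate diphosphate decarboxylase, makes isopentenyl diphosphate, and had log2 levels of 5.57 in KO fructose, 5.60 in KO control, 6.59 in WT fructose and 5.55 in WT control cells. The WT fructose array was about 1 log2 unit above the other 3, which lay between 5.55 and 5.60. These 3 values were dim, next to a background level of 4.764. The fructose effect was -0.03 (log2) in KO and 2.05-fold in WT. The difference of effects was -1.07, rank 53 from the bottom of 11050 genes and the lowest among the 28 members.

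The enzymes on either side of Mvd were less different between genotypes. Hmgcs1, which makes HMG-CoA, had 9.04 and 9.08 in KO fructose and KO control, against 9.44 and 9.27 in WT fructose and WT control. Mvk, mevalonate kinase, had 5.54 and 5.96 in KO fructose and KO control, against 5.83 and 6.34 in WT fructose and WT control. Pmvk, which adds the second phosphate, had 7.19 and 6.76 in KO fructose and KO control, against 7.29 and 6.79 in WT fructose and WT control. These genes thus did not share a direction with fructose. Mvk was lower in both genotypes (-0.42 in KO and -0.51 in WT) and Pmvk was higher in both (0.43 and 0.49). Hmgcs1 differed by -0.04 in KO and 0.17 in WT. Fdps, farnesyl diphosphate synthase, had 8.34 and 7.91 in KO fructose and KO control, against 8.60 and 8.01 in WT fructose and WT control, a fructose effect of 1.35-fold in KO and 1.51-fold in WT. Ggps1, at the branch to geranylgeranyl diphosphate, had 6.83 and 6.72 in KO fructose and KO control, against 7.01 and 6.85 in WT fructose and WT control. All 6 measured mevalonate genes were lower in KO than in WT in fructose medium, with a median of -0.28, and 5 of the 6 in control medium, with a median of -0.11. Of all detected genes, 47.5% were lower in KO in fructose medium and 52.0% in control medium.

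The squalene steps also divided. Fdft1, squalene synthase, stayed between 9.77 and 9.93 on all arrays. Sqle, squalene epoxidase and a rate-limiting step, had 8.45 in KO fructose, 8.08 in KO control, 8.64 in WT fructose and 7.95 in WT control cells. Both fructose arrays were the high ones, with an effect of 1.29-fold in KO and 1.61-fold in WT. Lss, lanosterol synthase, had 7.05 in KO fructose, 7.00 in KO control, 6.67 in WT fructose and 7.31 in WT control cells. Here the WT arrays were at the ends and both KO arrays in between: with fructose the level differed by 0.06 (log2) in KO and was 1.56-fold lower in WT. The difference of effects, 0.70, was the highest among the members and ranked 177 from the top of 11050 genes.

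Of the 9 enzymes after lanosterol, Dhcr7 showed the largest difference with fructose. Dhcr7, 7-dehydrocholesterol reductase, performs the last step of one branch of the route, and had 7.46 in KO fructose, 8.62 in KO control, 7.87 in WT fructose and 8.48 in WT control cells. Both fructose arrays were below both control arrays, and the KO fructose array was the lowest. Its level with fructose was 2.22-fold lower in KO, rank 75 from the bottom of 10752 detected genes, and 1.52-fold lower in WT. The difference of effects was -0.55. Hsd17b7, a sterol 3-ketoreductase, had 6.95 and 7.37 in KO fructose and KO control, against 6.74 and 7.32 in WT fructose and WT control. It was lower with fructose in both genotypes, by a log2 difference of -0.41 in KO and -0.58 in WT.

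The other enzymes after lanosterol stayed under 1.5-fold with fructose in both genotypes. Nsdhl, which removes the C4 carboxyl group, had 9.96 and 9.43 in KO fructose and KO control, against 9.72 and 9.48 in WT fructose and WT control, 1.44-fold higher with fructose in KO and 1.18-fold in WT. Lbr, the lamin B receptor with sterol C14-reductase activity, had 7.17 and 6.87 in KO fructose and KO control, against 7.41 and 6.86 in WT fructose and WT control, 1.24-fold and 1.46-fold higher. For both genes the fructose arrays were the high ones. Tm7sf2, a second C14-reductase, ranged only from 8.35 to 8.47. Ebp, the sterol delta8-delta7 isomerase, had 8.19 and 8.01 in KO fructose and KO control, against 8.03 and 7.81 in WT fructose and WT control. Cyp51, lanosterol 14-demethylase, had 7.58 and 7.34 in KO fructose and KO control, against 7.45 and 7.67 in WT fructose and WT control, so that fructose went with a difference of 0.24 in KO and -0.22 in WT. Cyp51 was thus highest in WT control and lowest in KO control. Msmo1, the C4-methyl oxidase, stayed between 8.40 and 8.55 and Sc5d, sterol C5-desaturase, between 10.04 and 10.28. The median fructose effect over these 9 genes was 0.07 in KO and 0.07 in WT.

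Genes of sterol transfer and export were mostly higher with fructose, 5 of 5 in KO and 4 of 5 in WT. Of all detected genes, 49.4% and 47.5% were higher. The median effect was 0.21 in KO and 0.34 in WT. In KO the effects of Mylip (0.05) and Abca1 (0.10) were near 0. Stard4, which carries cholesterol between membranes, had 5.64 in KO fructose, 5.17 in KO control, 6.20 in WT fructose and 5.46 in WT control cells. It was 1.38-fold higher with fructose in KO and 1.68-fold in WT, and it was lower in KO in either medium, by 1.48-fold in fructose and 1.22-fold in control medium. Abca1, which loads cholesterol onto apolipoprotein A-I, had 7.49 and 7.39 in KO fructose and KO control, against 7.90 and 7.57 in WT fructose and WT control, and was 1.33-fold and 1.13-fold lower in KO. Mylip, a ubiquitin ligase induced by LXR, had 5.29 and 5.24 in KO fructose and KO control, against 5.63 and 5.49 in WT fructose and WT control.

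Abcg5 and Abcg8 form a heterodimer that secretes sterol into bile, and their genes are neighbours with overlapping promoter windows in the RefSeq table. Abcg5 had 6.02 in KO fructose, 5.31 in KO control, 5.62 in WT fructose and 5.12 in WT control cells, 1.64-fold higher with fructose in KO and 1.41-fold in WT. Abcg8 had 6.18 in KO fructose, 5.96 in KO control, 5.76 in WT fructose and 6.12 in WT control cells, with a fructose effect of 0.21 in KO and -0.36 in WT. The subunits of the transporter thus differed in direction in WT. Both differences were under 1.5-fold, and Abcg5 in WT control (5.12) lay close to the background level of 4.764. In fructose medium both were higher in KO, by 0.41 each, while Stard4, Abca1 and Mylip were lower in KO (-0.56, -0.42 and -0.34), and all 8 macrophage markers and 5 of 6 endothelial markers were lower in KO there too.

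In KO hepatocytes the members' differences with fructose had about the same median size as those of all genes, and more of them were above 0. At 2-fold, 1 of 28 members was higher, Insig1, where 1.68% of 10752 detected genes were, and 1 was lower, Dhcr7, where 1.18% were. At 1.5-fold, 2 were higher (Insig1 and Abcg5; 6.11% of all genes) and 1 lower (Dhcr7; 5.75%). The median over the members was 0.11, with 20 of 28 above 0, and over all detected genes -0.004, with 49.4% above 0. The median size of the difference, without its sign, was 0.22 for the members and 0.22 for all detected genes.

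In WT hepatocytes the members' differences with fructose had a larger median size than those of all genes. At 2-fold, 3 of 28 were higher, Insig1, Mvd and Srebf1, where 3.10% of 10814 detected genes were, and 0 were lower, where 3.01% were. At 1.5-fold, 6 were higher, with Stard4, Sqle and Fdps added (9.46% of all genes), and 2 were lower, Lss and Dhcr7 (10.8%). Fdps at 1.51-fold lay just inside this threshold and Hsd17b7, with a log2 difference of -0.58, just outside it. The median over the members was 0.17, with 18 of 28 above 0, and over all detected genes -0.03, with 47.5% above 0. The median size without sign was 0.42 for the members and 0.28 for all detected genes.

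**Figure D2:**
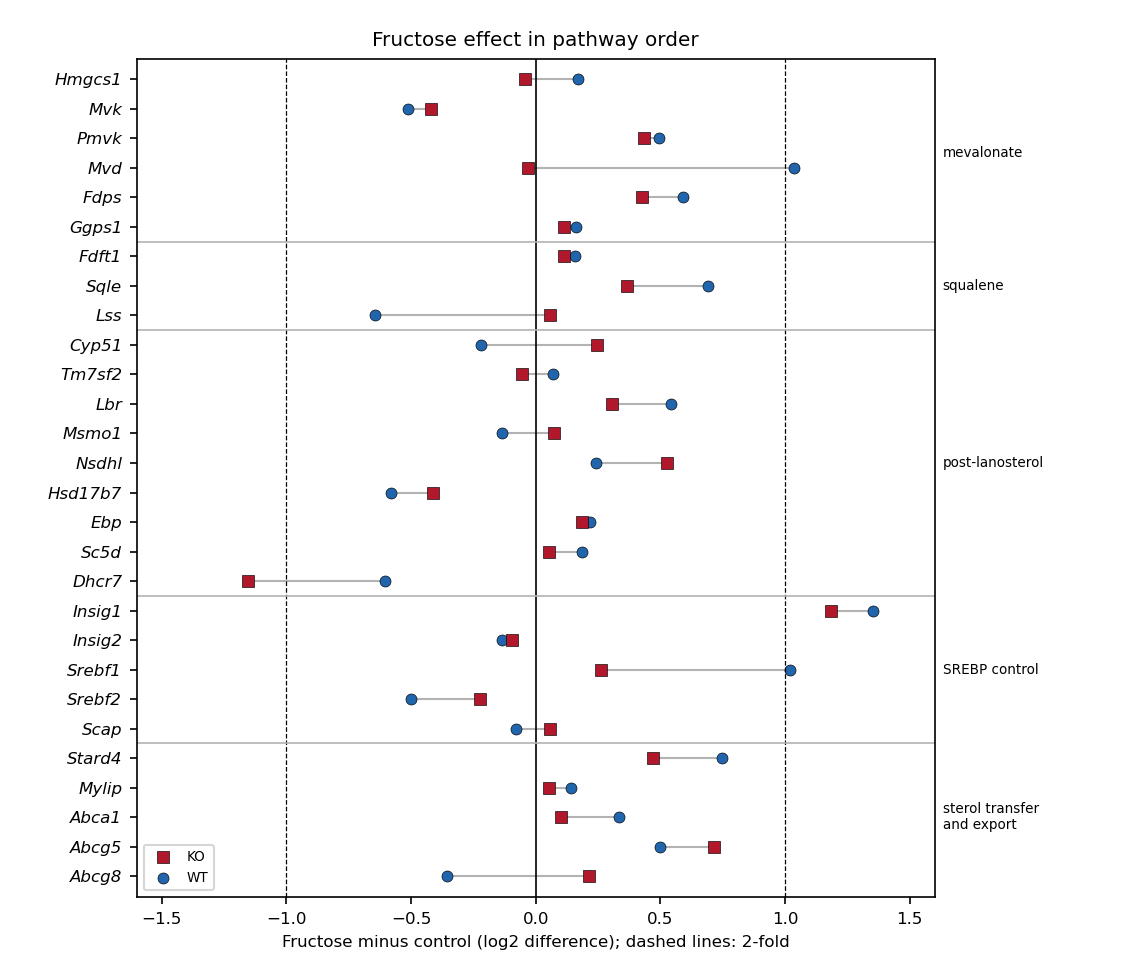
Fructose minus control (log2 difference, horizontal axis) for each of the 28 genes in pathway order, with red squares for KO and blue circles for WT, 1 array per group. Insig1 lies beyond the dashed 2-fold line in both genotypes, Mvd (1.04) and Srebf1 (1.02) beyond it in WT, and Dhcr7 (-1.15) beyond it in KO.

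The genotypes, measured on separate arrays, mostly ran the same way. With fructose, 15 members were higher in both genotypes, 5 were lower in both, and 8 went in opposite directions. The 20 that agreed in sign were 71.4% of members, next to 78.4% of the 10516 genes detected in both genotypes. The difference with fructose was smaller in KO than in WT, without its sign, for 24 of 28 members (85.7%), next to 63.2% of all genes. Nsdhl, Dhcr7, Cyp51 and Abcg5 were the exceptions. Across the 28 members, the effects in KO and WT had a Pearson correlation of 0.71, and across all genes of 0.83, as a description over genes that share arrays.

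**Figure D3:**
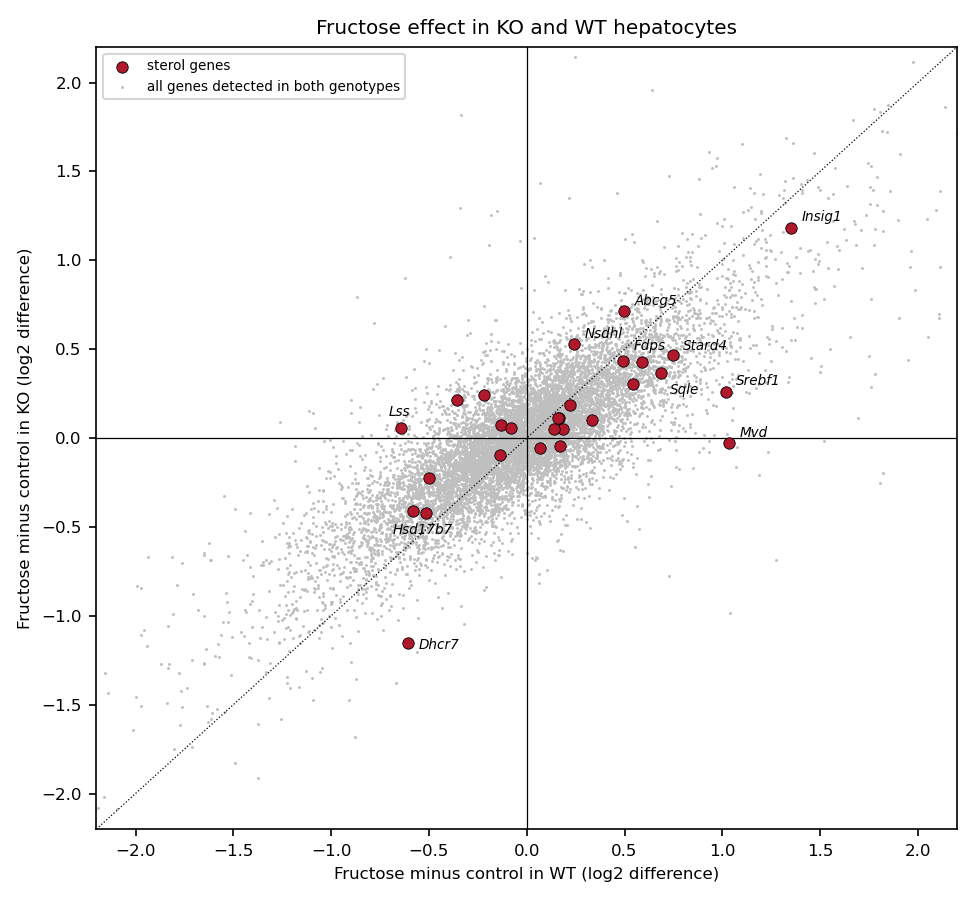
Fructose effect in KO (vertical axis) plotted against that in WT (horizontal axis), both as log2 differences, with the 28 sterol genes in red and the 10516 genes detected in both genotypes in grey, of which 57 lie outside the axes. On the dotted line both effects are equal; Insig1 lies near it, Mvd and Srebf1 lie far to the right of it, and Dhcr7 lies below it.

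In fructose medium, Mvd and Srebf1 were the members most different between genotypes. At 2-fold, 0 of 28 members were higher in KO, where 0.543% of 10688 detected genes were, and 2 were lower, Mvd (2.02-fold) and Srebf1 (2.02-fold), where 0.739% were. Both lay just past the threshold, and Stard4 at 1.48-fold was the next below it. With each array centred on its median, both fell short of 2-fold and the count of lower members was 0. At 1.5-fold, again 0 were higher (2.45% of all genes) and 2 lower (2.86%). The median over the members was -0.14, with 17 of 28 below 0, and over all genes 0.01, with 47.5% below 0. Insig1 (-0.42), Dhcr7 (-0.41) and Hmgcs1 (-0.40) were also lower in KO, and Lss (0.39), Abcg5 (0.41) and Abcg8 (0.41) were higher.

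In control medium, 0 of 28 members were 2-fold or 1.5-fold apart in either direction. Of the 10720 detected genes, 0.0373% were at least 2-fold higher in KO and 0.196% lower, and 0.476% were at least 1.5-fold higher and 1.10% lower. The member with the lowest difference was Mvk (-0.38), followed by Cyp51 (-0.33) and Lss (-0.31), and the highest was Ebp (0.19). The median was -0.06, with 18 of 28 (64.3%) below 0, next to -0.01 over all detected genes, with 52.0% below 0.

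**Figure D4:**
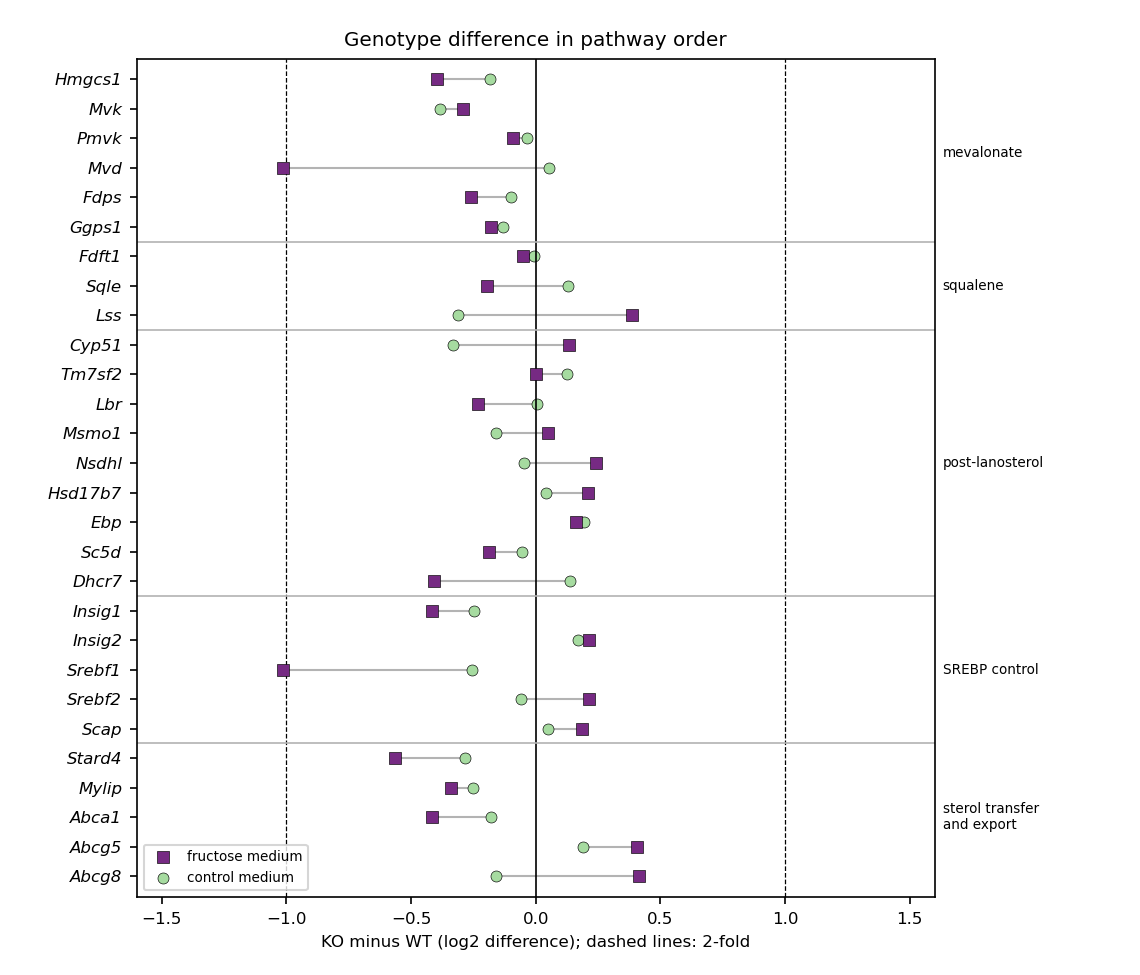
KO minus WT (log2 difference, horizontal axis) for each of the 28 genes in pathway order, with purple squares for fructose medium and green circles for control medium, 1 array per group. Mvd and Srebf1 sit at the dashed 2-fold line in fructose medium (-1.01 each), and in control medium all 28 genes lie between -0.38 and 0.19.

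Subtracting the WT effect of fructose from the KO effect uses all 4 arrays and so shares them with the comparisons above. At 2-fold, 0 of 28 members were higher by this measure, where 0.443% of 11050 genes were, and 1 was lower, Mvd, where 0.588% were. At 1.5-fold, 1 was higher, Lss (2.86% of all genes), and 2 were lower, Mvd and Srebf1 (2.60%). The median was -0.05 over the members and 0.03 over all genes, and with quantile normalization repeated the members' median was -0.10. Abcg8 (0.57) and Dhcr7 (-0.55) were the next largest in each direction and lay just under 1.5-fold.

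Other genes of sterol metabolism were read from a further list of 36 genes, of which 30 had a value and 29 were detected in each of the 4 comparisons between arrays. With fructose, 1 of 29 was at least 2-fold higher and 0 lower in KO, where 1.68% and 1.18% of all detected genes were. In WT, 3 of 29 were higher and 0 lower, where 3.10% and 3.01% were. Syvn1, a ubiquitin ligase of endoplasmic-reticulum degradation, was the gene in KO, with 9.83 and 8.51 in KO fructose and KO control, against 10.41 and 8.65 in WT fructose and WT control. Osbp, an oxysterol-binding protein that moves cholesterol to the Golgi, joined it in WT, with 8.91 and 8.23 in KO fructose and KO control, against 9.49 and 8.31 in WT fructose and WT control. So did its relative Osbpl2, with 9.08 and 8.50 in KO fructose and KO control, against 9.59 and 8.59 in WT fructose and WT control, just at 2-fold in WT. All 3 genes had their highest level in WT fructose and were lower in KO in that medium, by 0.58, 0.59 and 0.52. Coq2, which attaches the isoprenoid tail of ubiquinone, was the gene of the isoprenoid branches with the largest difference: 6.14 and 7.04 in KO fructose and KO control, against 5.99 and 6.81 in WT fructose and WT control, lower by -0.90 and -0.82. The list's median fructose effect was -0.02 in KO and 0.08 in WT. Between genotypes, 0 of its 29 detected genes were 2-fold apart in either medium. Of all detected genes, 0.543% were 2-fold higher and 0.739% lower in KO in fructose medium, and 0.0373% and 0.196% in control medium.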

How the data were processed

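The values are log2 expression per probe set, 1 column per array, as deposited by the authors. Per the submitters' processing notes the tools were RMA (robust multi-array average) in R 3.4.0. RMA makes the arrays' distributions alike, so a change shared by all genes cannot be seen. Biotin-labelled cDNA came from 400 ng of total RNA, per the labels' protocols. For the build and annotation version: not given in the sources used here.

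Of 41345 probe sets, 23521 had 1 gene symbol on the platform, 1814 several, and 16010 were unnamed. Names were updated by Entrez number to RefSeq (GRCm38.p6), which matched 23328. Probe sets of a gene were averaged. Background was the 95th percentile of the mean level of olfactory receptor genes, and a gene counted as detected when above it on at least 1 array of a comparison. Differences of log2 values were counted at 2-fold and 1.5-fold. With 1 array per group there was no test, no leave-one-out value could be had, and precision is limited by the number of arrays. All members were named, and genes of the further list at 2-fold or with the largest difference of their group. The members, lists and rules were chosen with earlier results of these data known. Python 3.11.15, numpy 2.4.6 and pandas 2.3.3 were used.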

Additional observations from a re-analysis of the deposited data

Results flagged for a closer look

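The fructose effect ran in opposite directions in KO and WT for 8 of the 28 members, next to 2276 of the 10516 genes detected in both genotypes. With 1 array per group the difference was not tested. The effect in KO minus that in WT was -1.07 for Mvd, 0.70 for Lss, 0.57 for Abcg8, 0.46 for Cyp51, -0.21 for Hmgcs1, 0.21 for Msmo1, 0.14 for Scap and -0.12 for Tm7sf2 (log2). For Mvd, Lss, Hmgcs1, Scap, Msmo1 and Tm7sf2 the effect in KO was under 0.1 in size, so its sign is that of a value near 0. Cyp51 (0.24 in KO and -0.22 in WT) and Abcg8 (0.21 in KO and -0.36 in WT) differed from 0 by more than that in both genotypes. For Scap, the brighter probe set alone gave 0.07 in KO and -0.19 in WT, a difference of effects of 0.26.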

How the results depend on the processing

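For each of the 5 comparisons, the members' median and their counts at 2-fold in each direction were recomputed under 7 alternatives. No median moved by more than 0.05, though with quantile normalization repeated the members' median difference of effects was -0.10 in place of -0.05, and no gene called at 2-fold changed direction. With each array centred on its median, the members lower in KO in fructose medium numbered 0 in place of 2, because Mvd and Srebf1 lie within 0.02 log2 units of the threshold. At 1.5-fold, the fructose effect in KO had 2 higher members, the fructose effect in WT had 6 higher and 2 lower, and the difference of effects had 1 higher and 2 lower. Under the remaining alternatives all 15 results stayed within their limits (0.1 for a median, 1.5 times for a count). These were repeated quantile normalization, a filter set 1 log2 unit higher or dropped, the brightest probe set per gene and values raised to background. Several of these outcomes were fixed in advance. All 28 members lay above background on every array, so dropping the filter or raising values could not change any member. The brightest probe set could change only Scap, the member with 2 probe sets. At the higher filter Mvd passed only through WT fructose (6.59), so its 2-fold calls could not be lost. The background correction could not be varied, since the values were deposited after RMA. No paired analysis was possible because each group has 1 array.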
